A study of Mus musculus with 6 samples.

Results

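The genes described are 9 members of the LIF, STAT3 and SOCS signaling pathway, taken by name (Lif, Lifr, Il6st, Osmr, Stat3, Socs1, Socs2, Socs3 and Cish) from the 25239 genes of a raw read count table of thyroid organoids. All 9 were found, and all 9 were among the 15256 genes with enough counts to be tested. The organoids were derived from the mouse embryonic stem cell line G4 RosaLuc, with the transgenes TRE-Nkx2-1-Pax8 and bTg-NES-BrafV637E-ERT2, a clone-derived line in which doxycycline turns on Nkx2-1 and Pax8 and the bovine thyroglobulin promoter drives a BrafV637E fusion that needs 4-hydroxytamoxifen (4OHT) to become active. All 3 groups carried this transgene, went through the same doxycycline step and were kept in 8-Br-cAMP, a stable cAMP analogue. The control organoids received the vehicle ethanol in place of 4OHT (cAMP), the 4OHT organoids received 1 µM of it for 5 days, and the PD+LY organoids received 4OHT with 250 nM PD0325901, a MEK inhibitor, and 5 µM LY204002, a PI3K inhibitor, for 3 days. Inhibitor-treated organoids are described as having had 4 days of 4OHT alone before that, and if so their total exposure to 4OHT was longer than in the 4OHT group, which cannot be told apart from the inhibitors. Each group had 2 libraries, collected on day 31, each from at least 3 pooled wells of a follicle-enriched preparation. Nothing shows that the 2 libraries came from separate differentiations, and p values then measure only the spread between them, which may be technical.

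LIF is a secreted cytokine of the interleukin-6 family. It binds LIFR, which pairs with the shared signal transducer gp130 (Il6st). Oncostatin M uses the related receptor OSMR with the same partner. The receptors carry Janus kinases, which phosphorylate STAT3, and STAT3 then enters the nucleus and switches on its targets, among them Socs3, whose protein binds gp130 and the kinases and shuts the signal down. SOCS1, SOCS2 and CISH are related inhibitors, and Socs2 and Cish are best known as targets of STAT5. In mouse embryonic stem cells LIF and STAT3 maintain self-renewal.

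Positions are those of GENCODE M21 on the mouse genome build GRCm38, the build to which the reads were aligned. Lif, Stat3 and Socs3 share chromosome 11. Lif (chromosome 11, 4257557 to 4272514, plus strand) is next to Osm, with 16.5 kb and no other coding gene between them. Lifr (chromosome 15, 7090614 to 7197489, plus strand) and Osmr (chromosome 15, 6813577 to 6874969, minus strand) are also neighbors, 215.6 kb apart. Stat3 (chromosome 11, 100885098 to 100939540, minus strand) shares 72 exonic bases with Stat5a on the opposite strand, and Cish (chromosome 9, 107296026 to 107302784, plus strand) shares 479 with the antisense gene Gm17041 and 261 with the pseudogene Gm17040. Reads were counted without regard to strand, so that reads from the bases shared by Stat3 and Stat5a cannot be assigned. Gm17041 and Gm17040 are not among the counted genes, and reads from them in Cish exons may be included in the counts of Cish. The exons of the other members, Il6st (chromosome 13, 112464070 to 112510086, plus strand), Socs1 (chromosome 16, 10782240 to 10785536, minus strand), Socs2 (chromosome 10, 95385362 to 95417180, minus strand) and Socs3 (chromosome 11, 117966079 to 117970047, minus strand), overlap with no annotated gene, nor do those of Lif, Lifr and Osmr.

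Lif and Socs3 were the 2 members whose transcripts changed at least 2-fold, so their promoter sequences are shown here. The RefSeq promoter table (GRCm38.p6) holds 8 of the 9 members. The 250 bases before each start were searched on both strands for 4 motifs: TTCNNNGAA, bound by STAT factors, TGANTCA, bound by AP-1, TGACGTCA, the cAMP response element, and CCGGAAG, bound by ETS factors. The stretches below leave out bases that GENCODE places in an exon of the gene. Both run 5′ to 3′ along the gene's strand, and capitals mark the motif found, AP-1 in Lif (chr11:4257318-4257556, plus strand) and STAT in Socs3 (chr11:117969452-117969616, minus strand).
Lif: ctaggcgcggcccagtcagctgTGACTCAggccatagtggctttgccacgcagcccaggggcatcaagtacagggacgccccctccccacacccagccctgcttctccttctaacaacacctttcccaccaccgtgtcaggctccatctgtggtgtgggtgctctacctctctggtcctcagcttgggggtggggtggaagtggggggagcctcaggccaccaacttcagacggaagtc
Socs3: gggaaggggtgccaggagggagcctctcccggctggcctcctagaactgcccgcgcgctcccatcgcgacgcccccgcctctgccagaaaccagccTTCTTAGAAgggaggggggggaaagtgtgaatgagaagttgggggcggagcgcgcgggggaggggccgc
The match in Lif, TGACTCA, begins 228 bases before the RefSeq start, and that in Socs3, TTCTTAGAA, begins 154 bases before it. The coding Socs3 transcript in GENCODE starts 180 bases downstream of the RefSeq start, so that its own immediate promoter was not searched. Among 32536 different promoter windows of the same length, 7.04% hold the STAT motif, 6.73% the AP-1 motif, 1.56% the cAMP response element and 6.95% the ETS motif. Neither the cAMP response element nor the ETS motif was present in the windows of any of the 8 members, and the windows of Stat3, Il6st, Cish, Osmr, Lifr and Socs1 hold none of the 4. The windows of Cish, Osmr, Lifr and Socs3 lie inside the gene as GENCODE places it, and those of Cish and Osmr begin in an exon. The sequence before the GENCODE starts of these genes was therefore not searched.

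The libraries held 14898409 to 20637959 counts, and 1 count corresponds to 0.0486 to 0.0667 CPM (the usual library-scaled counts, here on totals normalized by the TMM method). The lowest count of any member in any library was 41, for Socs1 in cAMP library 1. Spry4, an ERK target gene, had 17.3 to 21.3 CPM in the cAMP and 4OHT libraries and 0.255 and 0.243 CPM in PD+LY, and the log2 fold changes of Etv4 and Dusp6, also ERK targets, in PD+LY against 4OHT were -6.18 and -2.45. On activation the 3 did not move alike, since in 4OHT against cAMP Etv4 rose (0.80, adjusted p = 0.0064), Dusp6 fell (-0.72, adjusted p = 0.00489) and Spry4 was not called (0.10, adjusted p = 0.766). All 10 listed pluripotency genes and at least 9 of 10 thyroid follicular genes had 3 or more counts in every library, so that markers of the embryonic stem cells named in the labels and of thyroid cells were both present. In bulk samples fewer cells of a type and less RNA per cell cannot be told apart.

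Per kilobase of exon, Socs3 was the most abundant of the 9, at 26.9 ± 0.0049 RPKM in cAMP (mean ± SD, n = 2), and Osmr the least, at 0.870 ± 0.0919. On this scale and over all 6 libraries the order was Socs3 (mean 33.7 RPKM), Il6st (15.9), Stat3 (15.4), Lifr (7.76), Socs2 (5.33), Lif (3.60), Cish (2.83), Socs1 (1.77) and Osmr (0.945). Socs3 stood at the 89.9th percentile and Osmr at the 21.8th percentile of the 14992 tested genes with an exon length. Thus among the receptor genes of these 9, the transducer gp130 was the most abundant transcript and the OSM receptor the scarcest. In the cAMP libraries all neighbors in this order were separated except Socs1 and Osmr, whose values overlapped. Il6st and Stat3 changed places in 4OHT, where both Stat3 libraries (18.2 and 19.3 RPKM) were above both Il6st libraries (12.2 and 12.3). The mean of Lif was above that of Socs2 in 4OHT (5.88 and 4.83 RPKM), and that of Cish above that of Lif in PD+LY (3.32 and 2.14 RPKM). In PD+LY the highest Il6st library (21.3 RPKM) exceeded both Socs3 libraries (18.1 and 19.4).

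**Figure D1:**
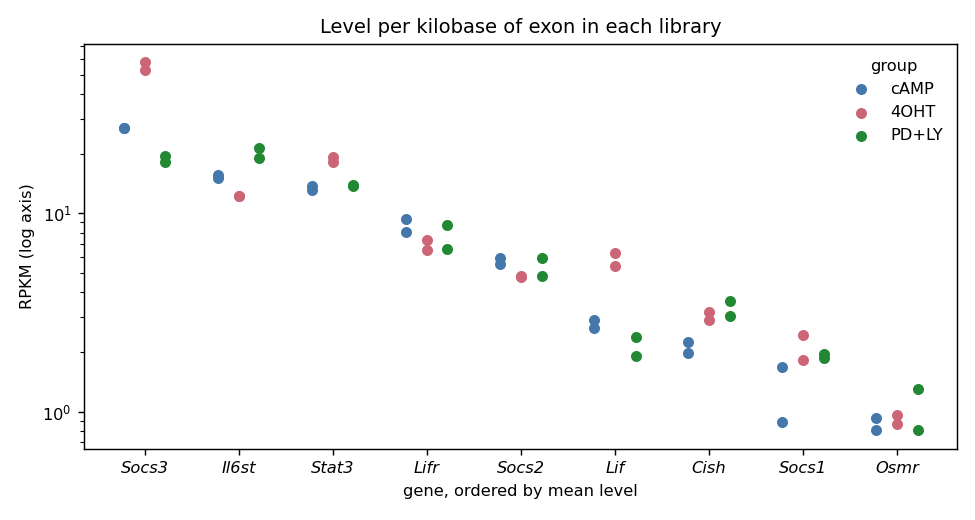
Levels of the 9 genes in RPKM (CPM per kilobase of exon, log axis), ordered from the highest to the lowest mean over 6 libraries; each point is 1 library, colored by group, with 2 libraries per group. Socs3 sits at the top in cAMP and 4OHT, and its PD+LY points (18.1 and 19.4) are level with those of Il6st (21.3 and 18.9).

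Activation of BrafV637E was examined by comparing 4OHT with cAMP. No library received 4OHT without carrying the BrafV637E transgene, so that effects of 4OHT itself cannot be told apart from those of activation. Lif rose 2.12-fold, Socs3 2.06-fold and Stat3 1.39-fold, and Il6st fell by 0.33 on the log2 scale. Of the 9 members 3 rose and 1 fell at an adjusted p under 0.05, where 4.04% of all tested genes rose and 4.35% fell. Lif and Socs3 also passed the 2-fold threshold and are called differentially expressed genes (DEGs), as were 1.17% of all tested genes upward and 1.51% downward. The median log2 fold change of the members was 0.48 and that of all tested genes -0.0021. Lif and Socs3 stand in pathway gene lists that the study drew from these same libraries, and their direction is therefore not independent evidence.

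Lif, the ligand, had 11.5 and 12.6 CPM in cAMP and 23.6 and 27.5 CPM in 4OHT. Both 4OHT libraries were above both cAMP libraries. With so few libraries per group, such separation often arises without any change. Lifr, Socs1, Socs2 and Cish also separated in 4OHT against cAMP, and none of them was called. How many of all tested genes separate was not counted for any comparison, so separation alone is not read as a change. For Lif the test gave the following. The log2 fold change was 1.09 (SE 0.17, 95% interval 0.72 to 1.45, adjusted p = 0.0027), or 2.12-fold. It was 0.97, under 2-fold, without 4OHT library 2 (adjusted p = 0.0484).

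Socs3, the feedback inhibitor of gp130, had 77.8 CPM in both cAMP libraries and 153.2 and 166.9 CPM in 4OHT. The cAMP libraries were almost identical and far below those of 4OHT. Its log2 fold change was 1.04 (SE 0.10, 95% interval 0.83 to 1.25, adjusted p = 0.000116), or 2.06-fold. Without 4OHT library 2 this was 0.98, again below 2-fold.

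Stat3, the transcription factor, had 131.6 and 124.6 CPM in cAMP and 173.0 and 184.0 CPM in 4OHT. The groups did not overlap. The log2 fold change was 0.48 (SE 0.09, adjusted p = 0.00822), and the call was lost without cAMP library 2 (adjusted p = 0.0731), 4OHT library 1 (0.0768) or 4OHT library 2 (0.127), with values between 0.44 and 0.53.

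Il6st, the gp130 gene, was the 1 member that fell, from 173.8 and 167.9 CPM in cAMP to 135.4 and 136.3 CPM in 4OHT. Each pair was tight and the 4OHT pair was lower. The log2 fold change was -0.33 (SE 0.09, adjusted p = 0.0493), close to the threshold, and it was lost with RLE size factors (adjusted p = 0.0517) and without any single library of the groups compared (adjusted p = 0.152 to 0.307).

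The other 2 receptors were not called. Lifr had 101.1 and 86.8 CPM in cAMP and 70.3 and 78.7 CPM in 4OHT. These values did not overlap, but the log2 fold change of -0.33 had an interval of -0.63 to -0.03 and an adjusted p = 0.164. Lifr passed with no filter on low counts (adjusted p = 0.0455), with only the 2 groups compared in the fit (0.0452), and without PD+LY library 1 (0.0399) or PD+LY library 2 (0.0407). Osmr had 11.3 and 9.75 CPM in cAMP and 10.5 and 11.6 CPM in 4OHT, overlapping values with a log2 fold change of 0.08 (95% interval -0.41 to 0.57, adjusted p = 0.869).

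Among the remaining inhibitors, Cish came nearest to a call. It had 14.3 and 12.7 CPM in cAMP and 20.5 and 18.7 CPM in 4OHT, which did not overlap, with a log2 fold change of 0.54 (SE 0.16, adjusted p = 0.0556). Cish passed with no filter on low counts (adjusted p = 0.0228), with only the 2 groups compared (0.0245), and without PD+LY library 1 (0.0213) or PD+LY library 2 (0.023). The replicate block gave a call for Cish too (adjusted p = 0.022). Socs1 had 2.58 and 4.87 CPM in cAMP and 5.27 and 7.08 CPM in 4OHT, on 41 to 129 counts, with a log2 fold change of 0.71 and a wide interval of 0.06 to 1.37 (adjusted p = 0.172). It was 1.27 without cAMP library 2 and 0.34 without cAMP library 1, so that 1 library decides its size. Socs2 had 56.9 and 52.9 CPM in cAMP and 45.7 and 46.3 CPM in 4OHT, a log2 fold change of -0.25 (95% interval -0.53 to 0.02, adjusted p = 0.243). The 4 inhibitors thus had 3 positive values and 1 negative value, of which only that of Socs3 passed the test.

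**Figure D2:**
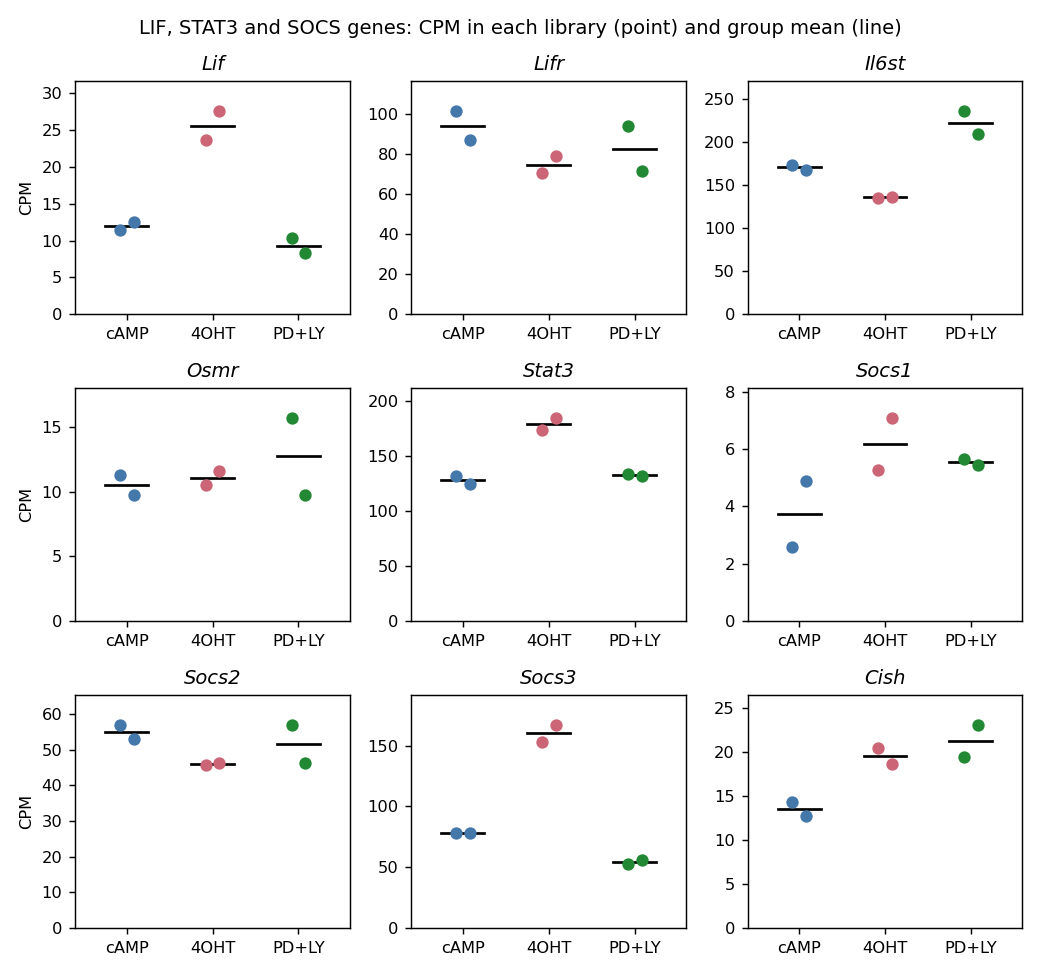
CPM of each of the 9 genes (linear axes from 0) in the 2 libraries of cAMP, 4OHT and PD+LY; points are libraries and lines are group means. Lif, Socs3 and Stat3 peak in 4OHT, with Socs3 at 153.2 and 166.9 CPM against 77.8 in cAMP and 52.4 and 56.2 in PD+LY, while Il6st is lowest in 4OHT.

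The effect of the inhibitors was examined by comparing PD+LY with 4OHT. Lif and Socs3 fell 2.75-fold and 2.95-fold, Stat3 fell 1.35-fold, and Il6st rose 1.64-fold. Of the 9 members 1 rose and 3 fell, against 10.7% and 12.1% of all tested genes. The 2 DEGs among the members, Lif and Socs3, were both lower. Of all tested genes 4.90% were DEGs downward and 2.35% upward. The members' median log2 fold change was 0.12, beside 0.0077 for all tested genes. This comparison shares the 4OHT libraries with the previous one, so that opposite signs in the 2 comparisons are not independent of each other.

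Lif had 10.4 and 8.27 CPM in PD+LY, below the 23.6 and 27.5 CPM of 4OHT without overlap. The log2 fold change was -1.46 (SE 0.17, 95% interval -1.83 to -1.09, adjusted p = 0.000169), or 2.75-fold lower. Socs3 had 52.4 and 56.2 CPM in PD+LY, and its log2 fold change was -1.56 (SE 0.10, 95% interval -1.78 to -1.34, adjusted p = 2.55e-06), or 2.95-fold lower. Both were still called and past 2-fold when any single library was left out.

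Stat3 had 133.1 and 131.2 CPM in PD+LY, below both 4OHT libraries, with a log2 fold change of -0.43 (SE 0.09, adjusted p = 0.00537). That call was lost without 4OHT library 2 (adjusted p = 0.0991). Il6st moved the other way, to 235.9 and 209.9 CPM, above both 4OHT libraries, with a log2 fold change of 0.71 (SE 0.09, 95% interval 0.51 to 0.92, adjusted p = 0.000337).

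The remaining 5 members overlapped between PD+LY and 4OHT and were not called. Lifr had 93.9 and 71.2 CPM in PD+LY (log2 fold change 0.15, 95% interval -0.15 to 0.45). Osmr had 15.7 and 9.77 CPM, the widest pair relative to its level (0.20, -0.29 to 0.68). Socs1 had 5.65 and 5.45 CPM (-0.16, -0.79 to 0.47), Socs2 56.9 and 46.2 CPM (0.16, -0.11 to 0.44) and Cish 19.5 and 23.1 CPM (0.12, -0.21 to 0.45). PD+LY library 1 was the higher of the pair for both receptors and for Socs1 and Socs2, and the lower for Cish. Adjusted p values for these 5 ran from 0.374 to 0.727. All 5 intervals lay within a 2-fold change in either direction, and that of Socs1 was the widest.

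How far the inhibitor-treated organoids stood from those never given 4OHT was asked by comparing PD+LY with cAMP. Il6st and Cish were higher in PD+LY and Socs3 was lower, while Stat3 was near its cAMP level. Of the 9 members 2 rose and 1 fell, beside 12.1% and 13.7% of all tested genes, and 0 were DEGs by edgeR (3 members were at an unadjusted p under 0.05) and 0 by DESeq2, beside 3.00% of all genes upward and 6.24% downward. The members' median log2 fold change was 0.05 and that of all tested genes 0.0049.

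Socs3 in PD+LY (52.4 and 56.2 CPM) was below both cAMP libraries (77.8 CPM in each), by a log2 fold change of -0.52 (SE 0.10, 95% interval -0.73 to -0.30, adjusted p = 0.00254). Lif was also lower in both PD+LY libraries than in both cAMP libraries, but its log2 fold change of -0.37 (95% interval -0.75 to 0.01) had an adjusted p = 0.14. Without PD+LY library 1 that of Lif was -0.54 and passed the test (adjusted p = 0.0491). For Stat3 the log2 fold change was 0.05 with a 95% interval of -0.15 to 0.24.

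Il6st was higher in PD+LY than in cAMP in both libraries (log2 fold change 0.38, SE 0.09, adjusted p = 0.01), a call lost without cAMP library 1 (adjusted p = 0.0501) or cAMP library 2 (0.0776). Cish was higher as well (0.66, SE 0.15, 95% interval 0.32 to 0.99, adjusted p = 0.00854), and its call was lost without cAMP library 2 (adjusted p = 0.0725). Cish thus stood above cAMP in 4OHT without passing the test and in PD+LY with it. Socs1 had 0.55 (95% interval -0.10 to 1.20), Osmr 0.28, Socs2 -0.09 and Lifr -0.19, and none of these passed. The value of Socs1 passed without cAMP library 2 (1.11, adjusted p = 0.0425), that of Osmr without PD+LY library 2 (0.58, adjusted p = 0.0404) and that of Lifr without PD+LY library 1 (-0.40, adjusted p = 0.0284).

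**Figure D3:**
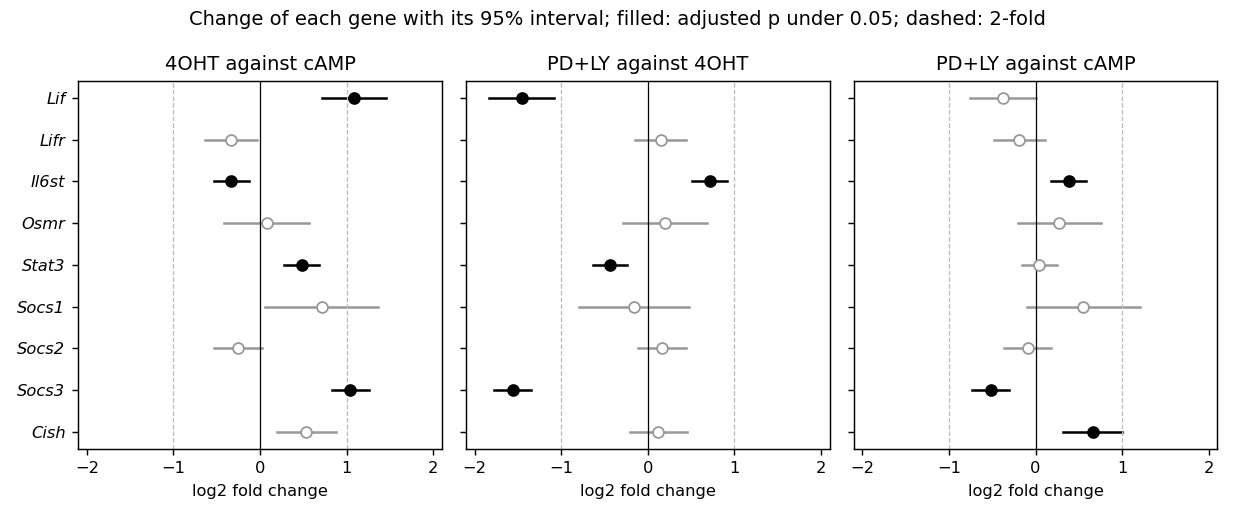
Log2 fold change of each of the 9 genes (points) with its 95% interval (lines) in the 3 comparisons; filled points have an adjusted p under 0.05 and dashed lines mark a 2-fold change. Lif and Socs3 lie beyond 2-fold to the right in 4OHT against cAMP (1.09 and 1.04) and to the left in PD+LY against 4OHT (-1.46 and -1.56).

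Marker genes of other cells were set beside these values, as sums that a few abundant genes dominate and as counts of called genes. Of all tested genes 4.04% rose and 4.35% fell in 4OHT against cAMP. In PD+LY 10.7% rose and 12.1% fell against 4OHT, and 12.1% rose and 13.7% fell against cAMP. The 10 mesenchymal genes summed to 1207 and 1315 CPM in cAMP, 2256 and 2378 in 4OHT and 4846 and 4115 in PD+LY, most of it from the collagen genes Col1a1, Col1a2 and Col3a1. In 4OHT against cAMP 4 of the 10 rose. In PD+LY against 4OHT 4 rose (the 3 collagen genes and Postn) and 3 fell (Pdgfrb, Twist1 and Thy1), so that the list did not move as a whole. The 10 thyroid follicular genes summed to 1648 and 1104 CPM in cAMP, 570.2 and 761.1 in 4OHT and 1976 and 985.8 in PD+LY, most of it from Tg. Tg and Slc5a5 fell in 4OHT against cAMP and rose in PD+LY against 4OHT, while Pax8, Nkx2-1 and Hhex were not called in either. The 10 epithelial genes summed to 1178 and 1255 CPM in cAMP, 855.5 and 948.3 in 4OHT and 812.1 and 858.4 in PD+LY, and 5 of them fell on activation with 4OHT, while 7 were lower and 1 higher in PD+LY than in 4OHT. The 10 endothelial genes summed to 228.0 to 230.0 CPM in cAMP, 247.2 to 249.9 in 4OHT and 214.7 to 219.3 in PD+LY, most of it from Pecam1 and Egfl7. Against that sum, 4 of the 9 tested endothelial genes fell in 4OHT against cAMP (Kdr, Tie1, Cldn5 and Cdh5, with log2 fold changes of -1.47 to -3.46) and 1 rose (Pecam1). For 10 pluripotency genes the sums were 3736 to 3846 CPM in cAMP, 4167 to 4351 in 4OHT and 4303 to 4671 in PD+LY. In 4OHT against cAMP 1 of them rose. In PD+LY 3 rose (Nanog, Sox2 and Klf2) and 2 fell (Utf1 and Tdgf1) against 4OHT. Against cAMP 5 rose and 2 fell, so that this list did not move as a whole either. Of 10 macrophage genes 5 to 8 had 3 or more counts per library. Their sums were 70.5 and 71.3 CPM in cAMP, 60.7 and 70.2 in 4OHT and 33.7 and 35.3 in PD+LY, most of it from Cd68. Cd68 and, on few counts, Lyz2 were lower in PD+LY than in both other groups, and no other gene of this list was called. The defining genes Ptprc and Adgre1 had 0 counts in every library, which allows up to 0.2 CPM per library. The part of these cells in the changes of the members was not tested.

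The genes whose pattern over the 6 libraries was most like that of Lif were Bcl6, a transcriptional repressor, and the keratin gene Krt7, with a root mean square difference of 0.07 and 0.08 between their log2 CPM values after centring each gene. For Socs3 they were Krt7 and Inhbb, the inhibin beta B subunit, each at 0.11. Among the 12223 genes that averaged 50 counts or more, 21 were within 0.2 of Lif and 20 within 0.2 of Socs3. Krt7 had a log2 fold change of 1.05 on activation with 4OHT, and in PD+LY it had -1.57 against 4OHT and -0.53 against cAMP.

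Other ligands of the family were mostly scarce. Of 10 such genes 5 had enough counts to be tested. Clcf1, a cytokine that signals through gp130 and LIFR, had 2.26 and 4.73 CPM in cAMP, 5.94 and 5.54 CPM in 4OHT and 1.88 and 1.17 CPM in PD+LY. Both PD+LY libraries were below all libraries of the other groups. Clcf1 fell in PD+LY relative to 4OHT (log2 fold change -1.91, SE 0.37, adjusted p = 0.00384) and relative to cAMP (-1.22, adjusted p = 0.035). Il11, named after its values were seen, also fell relative to 4OHT, on only 14 and 33 counts in 4OHT and 4 and 2 in PD+LY (adjusted p = 0.00805). Osm, the neighbor of Lif on chromosome 11, had 3.59 and 2.49 CPM in cAMP, 2.54 and 4.00 in 4OHT and 2.50 and 2.87 in PD+LY, overlapping throughout, and it is likewise named after its values were seen. For Osm the 4OHT libraries differed from cAMP by a log2 fold change of 0.13 (adjusted p = 0.852), while that of Lif was 1.09.

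Of 16 further cytokine receptor genes 12 were tested. In 4OHT against cAMP 1 rose and 1 fell, beside 4.04% and 4.35% of all tested genes. Il11ra1, the interleukin-11 receptor, had 11.1 and 11.3 CPM in cAMP and 18.1 and 19.9 CPM in 4OHT (log2 fold change 0.76, adjusted p = 0.0143), and Prlr, the prolactin receptor, which signals through STAT5, had -1.03 (adjusted p = 0.0368). Relative to 4OHT 2 fell in PD+LY, Il11ra1 (-0.90, adjusted p = 0.00242) and the leptin receptor gene Lepr (-1.38, adjusted p = 0.00648). Relative to cAMP 3 fell in PD+LY, Prlr (-0.79, adjusted p = 0.0437) and, on few counts and named after their values were seen, Csf2rb and Epor. Of all tested genes 12.1% fell in PD+LY relative to 4OHT and 13.7% relative to cAMP. List medians were -0.24, -0.37 and -0.50, beside -0.0021, 0.0077 and 0.0049 for all tested genes.

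The 10 Janus kinase and other STAT genes were all tested. In 4OHT against cAMP Jak3 rose (log2 fold change 0.80, adjusted p = 0.027) and Stat4 fell (-1.04, SE 0.20, adjusted p = 0.00938), and the other 8 were not called. In PD+LY 2 fell relative to both other groups, where 12.1% of all tested genes fell relative to 4OHT and 13.7% relative to cAMP. They were Stat6, which transmits interleukin-4 signals (-0.92 against 4OHT, adjusted p = 0.000388, and -0.68 against cAMP, adjusted p = 0.00197), and Stat2, which transmits interferon signals (-0.61, adjusted p = 0.00164, and -0.33, adjusted p = 0.0338). Stat5a, next to Stat3 and the known activator of Cish, had 0.37 in 4OHT against cAMP (adjusted p = 0.205), chosen for mention after its values were seen. Of all tested genes 4.04% rose and 4.35% fell in 4OHT against cAMP. List medians were 0.24, -0.22 and -0.06, beside -0.0021, 0.0077 and 0.0049 for all tested genes.

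None of 12 other inhibitors, which comprise Socs4 to Socs7, the Pias genes and 4 tyrosine phosphatases, passed the edgeR test in 4OHT against cAMP or in PD+LY against 4OHT. At an unadjusted p under 0.05 there were 3 and 2 of them, and DESeq2 called 1 and 0. Among all tested genes the edgeR test called 4.04% higher and 4.35% lower in the first of these comparisons. The shares were 10.7% higher and 12.1% lower in the second. Socs6 alone rose in PD+LY against cAMP (log2 fold change 0.40, SE 0.12, adjusted p = 0.0251), with 32.2 and 32.1 CPM in cAMP, 33.6 and 33.4 in 4OHT and 44.1 and 40.8 in PD+LY. With PD+LY set against cAMP, 12.1% of all tested genes were called higher and 13.7% lower. List medians were -0.02, 0.05 and 0.02.

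Targets of STAT3 in many tissues were read from a list of 18 genes, of which 17 were tested. Many of them, such as Fos, Junb, Myc and Ier3, are also known targets of ERK, and several stand in the gene lists the study drew from these libraries, so that the list is no independent readout of STAT3. In 4OHT against cAMP 8 rose and 1 fell (median log2 fold change 0.52), beside 4.04% and 4.35% of all tested genes. The 4 DEGs were Cebpb, a transcription factor of the acute phase response (1.44, adjusted p = 0.0109), Bcl3, a partner of NF-kB (1.26, SE 0.15, adjusted p = 0.000512), Junb (1.01, adjusted p = 0.014) and, on few counts, the fibrinogen gene Fgg (2.00, adjusted p = 0.0463), the last 2 named after their values were seen. The 1 that fell was Mcl1, a survival factor (-0.41, adjusted p = 0.0257).

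Under PD+LY 12 of the 17 fell and 2 rose relative to 4OHT (median -1.01), beside 12.1% and 10.7% of all tested genes. Ier3, a stress response gene, had 59.0 and 71.0 CPM in 4OHT and 15.3 and 14.4 CPM in PD+LY (-2.13, SE 0.14, adjusted p = 2.55e-06). Lcn2, which encodes the iron-carrier protein lipocalin 2, had -2.06 (adjusted p = 0.000166). Saa3, an acute phase gene, went the other way, with 14.5 and 14.7 CPM in 4OHT and 84.2 and 77.6 CPM in PD+LY (2.47, SE 0.18, adjusted p = 6.76e-06), as did the haptoglobin gene Hp (0.63, adjusted p = 0.0417). The acute phase genes of the list thus moved in both directions. Relative to cAMP 4 rose and 7 fell in PD+LY (median -0.42), beside 12.1% and 13.7% of all tested genes. Saa3 (2.84) and Hp (0.98) were among those that rose, and Ier3 (-1.61) and Lcn2 (-1.49) among those that fell.

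The 5 genes listed as STAT3 targets of embryonic stem cells all had positive values in 4OHT against cAMP. Of the 5, 4 rose (median 0.45), beside 4.04% of all tested genes. Whether STAT3 drives them in these organoids was not tested. Tbx3, the transcription factor with the largest change, had 58.6 and 57.6 CPM in cAMP and 131.8 and 127.7 CPM in 4OHT (1.16, SE 0.10, adjusted p = 6.39e-05). Klf5 rose by 0.45 on the log2 scale (adjusted p = 0.0185), and Klf4 and Tfcp2l1, named after their values were seen, by 0.43 and 0.38. In PD+LY against 4OHT these genes did not move together: Gbx2 fell (-1.54, adjusted p = 0.00723), Klf4 rose again (0.32, adjusted p = 0.0279), and Tbx3 (-0.19), Klf5 and Tfcp2l1 were not called (median -0.23). Klf4, one of the pluripotency factors, thus had 89.1 and 88.2 CPM in cAMP, 120.4 and 119.1 in 4OHT and 154.8 and 143.4 in PD+LY. Against cAMP 2 rose in PD+LY, Tbx3 (0.97, adjusted p = 3.69e-05) and Klf4 (0.75, adjusted p = 0.000134), with a list median of 0.16. Of all tested genes 12.1% rose in that comparison.

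**Figure D4:**
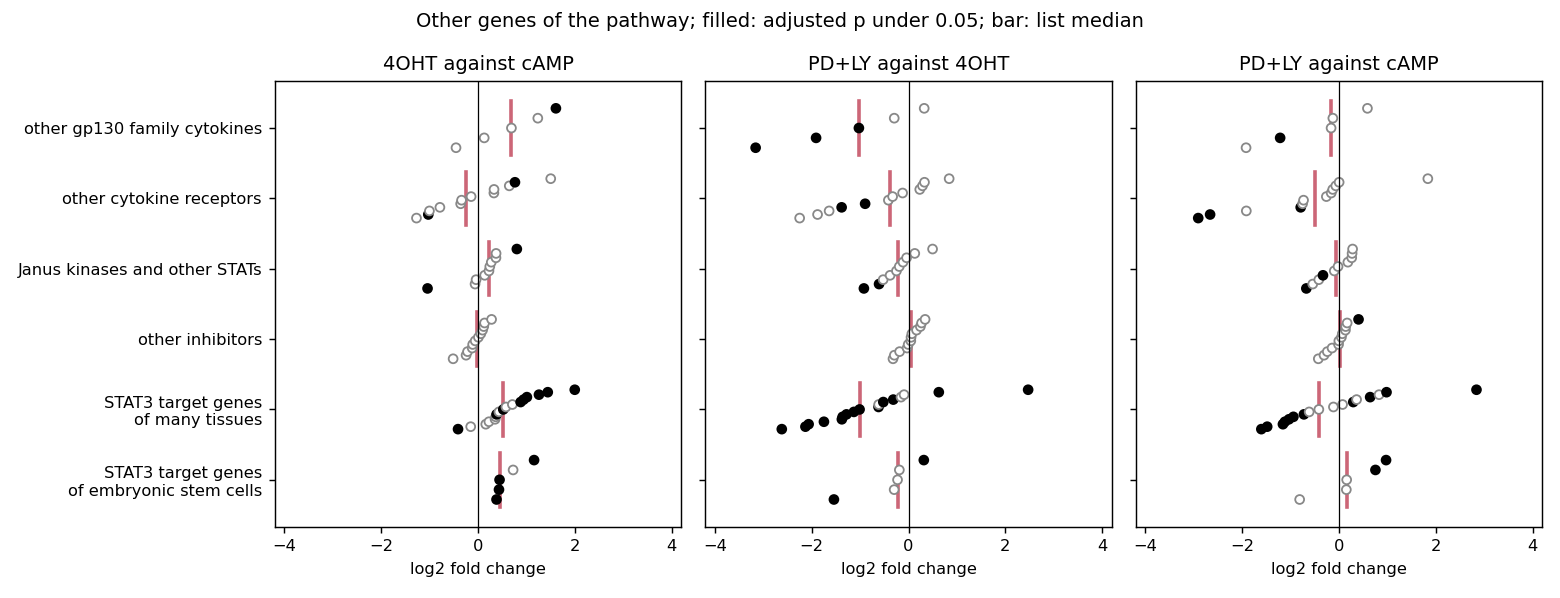
Log2 fold change of every tested gene in 6 lists of other pathway genes in the 3 comparisons; each point is 1 gene, filled where the adjusted p is under 0.05, and the colored bar is the list median. The STAT3 targets of many tissues lie mostly to the right in 4OHT against cAMP (median 0.52) and to the left in PD+LY against 4OHT (median -1.01), with Saa3 (2.47) and Hp (0.63) the 2 filled points on the right, while the other inhibitors lie close to 0.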

How the data were processed

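RNA was sequenced from 6 libraries (2 each of cAMP, 4OHT and PD+LY) made with a stranded kit. The deposited values are raw read counts per gene, which the authors made with HISAT2 alignment to mm10 and HTSeq counting without strand. Groups were taken from the labels. No columns of other samples were in the table.

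The filterByExpr function with a minimum count of 10 and a minimum total of 15 removed 9983 of 25239 genes. Counts were scaled by TMM and tested with the quasi-likelihood test of edgeR 4.0.16 (R 4.3.3), with all 6 libraries and 3 groups in 1 model and Benjamini-Hochberg adjustment over 15256 genes. A gene was called at an adjusted p under 0.05, and a DEG also needed a fold of at least 2, the thresholds of the study. The steps were tested on simulated data. Replicates differed by more than sampling noise (chi-square per degree of freedom 4.53 to 17.7), and 3 counts, taken as the limit of detection for counting error only, are 0.146 to 0.2 CPM. An exact permutation test of 2 against 2 libraries cannot go below p = 0.3333 and was not used.

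The 9 genes and all lists were chosen with earlier results of these data known. Besides the 9, in each comparison the 2 genes per list and direction with the largest called change and a mean of at least 50 counts were named, and the ERK targets Spry4, Dusp6 and Etv4. 1 gene that this rule names is not reported here. Alternatives were RLE size factors, 2 other filters, DESeq2 1.42.0, a fit of only the groups compared, a replicate block, and leaving out each library.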

Additional observations from a re-analysis of the deposited data

How the results depend on the processing

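Lif and Socs3 were called as higher in 4OHT than in cAMP, and as lower in PD+LY than in 4OHT, under every alternative run, and Socs3 also as lower in PD+LY than in cAMP. With 1 library left out, the members called in 4OHT against cAMP ranged from 2 to 6 and their DEGs from 0 to 2 (0 without 4OHT replicate 2). For PD+LY against cAMP these ranges were 2 to 5 and 0 to 1. An arm left with 1 library was assumed to vary like the other groups. Values that changed sign, none of them called, did so only with 1 library left out. They were Osmr in 4OHT against cAMP (-0.0237 to 0.186), in PD+LY against 4OHT (-0.183 to 0.500) and in PD+LY against cAMP (-0.103 to 0.581), Lifr in PD+LY against 4OHT (-0.0665 to 0.334) and against cAMP (-0.397 to 0.00288), Socs1 (-0.347 to 0.0781) and Cish (-0.00333 to 0.239) in PD+LY against 4OHT, and Socs2 in PD+LY against cAMP (-0.248 to 0.0548). The cause was not tested.

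Over all genes, 1280 were called in 4OHT against cAMP. This became 2186 with no filter on low counts, 2307 with only the 2 groups compared, and 2373 with the replicate block, and ranged from 216 to 2314 with 1 library left out. With 1 library left out, the DEGs there ranged from 164 to 487 (408 with all libraries). Again with 1 library left out, in PD+LY against 4OHT the calls ranged from 1198 to 4158 (3469 with all libraries) and the DEGs from 632 to 1176 (1107), and in PD+LY against cAMP the calls from 2351 to 4287 (3925). In these PD+LY comparisons the other alternatives stayed within 1.5 times the counts with all libraries, the highest being 4742 and 5057 calls with the replicate block. Libraries with the same replicate number did not all deviate together (correlations 0.0586, 0.0718 and 0.207), and nothing in the labels says what a number marks, so that the libraries were not treated as paired. Whether a number marks a shared batch is not known. With the replicate block 5 members instead of 4 were called in 4OHT against cAMP, the addition being Cish.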
